A study of Homo sapiens with 68 samples.

Results

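HLF, the related PAR bZIP genes and the clock genes tied to them were followed in A673 cells, a human Ewing sarcoma line with the EWS/FLI translocation, after treatment with ARA-C, doxorubicin or puromycin. The 9 genes were HLF, DBP, TEF, NFIL3, PER1, PER2, CRY1, NR1D2 and BHLHE40, of 11882 genes with a probe set of their own on the array. They have 16 probe sets, of 22215 in all, and each gene was read from its brightest one by mean signal. The group is built around HLF, which was picked on its fall in signal under ARA-C and doxorubicin, so under those compounds its values are a description and it was not tested there.

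ARA-C (cytarabine), a nucleoside analogue that stops DNA strands from being extended, was given at 0.17 uM or 0.34 uM. Doxorubicin, an anthracycline that acts on topoisomerase II, was given at 59.88 nM or 119.76 nM, and puromycin, which ends translation early, at 0.09 uM or 0.18 uM. The lower dose is labelled EC50 and the higher 2xEC50, and the reference was DMSO vehicle. RNA was taken at 24 h, on day 3 and on day 5. Treated groups held 3 arrays apart from doxorubicin 119.76 nM on day 5 (n = 2), puromycin 0.09 uM on day 5 (n = 2 after 1 array was left out) and puromycin 0.18 uM on day 5 (n = 1). Vehicle had 6 arrays at 24 h, 5 on day 3 and 6 on day 5. Every group is the same cell line grown in the same medium with serum, and the sources used here give neither a clock synchronisation nor the time of day of harvest. The arrays are labelled as biological replicates without saying what was separate, so p-values measure the spread between these arrays. The study's stated purpose for doxorubicin and puromycin was to ask whether cell-killing compounds in general change expression as ARA-C does.

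The PAR bZIP proteins HLF, DBP and TEF are transcription factors that bind D-box elements and activate genes. NFIL3, a related bZIP protein, binds the same elements and represses them. In the circadian clock, CLOCK (or its paralogue NPAS2) and BMAL1 activate genes at E-boxes, PER1, PER2 and CRY1 proteins inhibit that pair, BHLHE40 represses at E-boxes, and NR1D2 (REV-ERB beta) represses BMAL1. In mouse liver the PAR bZIP proteins drive genes of drug and vitamin metabolism. HLF is also known as the partner of TCF3 in the fusion protein of a rare leukaemia.

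PAR bZIP proteins act through D-boxes and the clock proteins through E-boxes, so promoter windows that hold one of these elements, or a CRE, are shown for 5 genes. RefSeq start sites on GRCh38.p14 gave 13 windows of 300 bases, from 250 before to 50 after a start site, covering 9 of 9 genes. Each was searched on both strands for the E-box CACGTG, the D-box TTATGTAA or TTACGTAA, and the CRE TGACGTCA, the element bound by CREB. Capitals mark the matches, positions count from the start site as 1, and no match overlapped another.
HLF, chr17:55264710-55265009, plus strand, a CRE at -7 to 1: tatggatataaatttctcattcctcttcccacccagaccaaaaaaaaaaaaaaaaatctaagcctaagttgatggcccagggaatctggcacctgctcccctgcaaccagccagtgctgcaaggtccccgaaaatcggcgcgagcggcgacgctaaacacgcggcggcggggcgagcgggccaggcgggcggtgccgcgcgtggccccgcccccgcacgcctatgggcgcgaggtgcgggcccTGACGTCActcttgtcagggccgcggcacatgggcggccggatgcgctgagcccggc
PER2, chr2:238288561-238288860, minus strand, a D-box at -3 to 5: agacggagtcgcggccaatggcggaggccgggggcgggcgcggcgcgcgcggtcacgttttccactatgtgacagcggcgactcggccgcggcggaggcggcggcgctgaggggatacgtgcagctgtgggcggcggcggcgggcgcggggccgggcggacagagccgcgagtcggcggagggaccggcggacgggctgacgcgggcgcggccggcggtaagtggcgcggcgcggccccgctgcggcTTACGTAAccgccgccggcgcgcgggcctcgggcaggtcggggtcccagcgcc
NR1D2, chr3:23945871-23946170, plus strand, a D-box at -194 to -187 read on the other strand and E-boxes at -155 to -150 and -105 to -100: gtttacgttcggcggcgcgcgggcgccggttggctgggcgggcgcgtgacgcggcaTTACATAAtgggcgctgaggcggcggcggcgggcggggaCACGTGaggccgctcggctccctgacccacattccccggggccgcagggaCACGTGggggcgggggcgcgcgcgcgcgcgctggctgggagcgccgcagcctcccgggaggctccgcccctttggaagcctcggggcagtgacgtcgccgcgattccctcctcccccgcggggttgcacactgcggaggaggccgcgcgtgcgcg
PER1, chr17:8152355-8152654, minus strand, an E-box at -173 to -168: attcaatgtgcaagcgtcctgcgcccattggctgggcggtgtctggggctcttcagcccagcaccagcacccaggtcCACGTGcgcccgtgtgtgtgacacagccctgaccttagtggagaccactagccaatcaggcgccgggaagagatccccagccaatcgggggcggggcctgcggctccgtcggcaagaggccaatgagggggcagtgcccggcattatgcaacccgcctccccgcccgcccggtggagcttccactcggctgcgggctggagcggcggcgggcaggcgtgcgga
BHLHE40, chr3:4979187-4979486, plus strand, an E-box at -245 to -240: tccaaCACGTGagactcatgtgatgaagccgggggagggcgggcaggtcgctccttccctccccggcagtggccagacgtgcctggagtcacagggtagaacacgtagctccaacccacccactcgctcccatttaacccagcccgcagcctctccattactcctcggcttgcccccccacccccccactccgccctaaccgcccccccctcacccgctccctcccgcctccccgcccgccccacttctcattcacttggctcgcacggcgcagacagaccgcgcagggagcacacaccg
Both TEF windows held an E-box too. The DBP, NFIL3 and CRY1 windows, the other HLF window and the other NR1D2 window, 6 windows in all, held none of these letters. Of all 35116 windows of this length, 7.26% held the E-box, 1.01% the D-box and 1.85% the CRE. A match describes the sequence and says nothing of binding in these cells.

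Values are MAS5 signals, a linear intensity in arbitrary units with nearly equal means over the arrays, and differences are in log2 units after signals under 10 were set to 10. Array medians ranged from 92.3 to 213, and 0.22% to 22.4% of an array's values lay under 10. The array left out, puromycin 0.09 uM day 5 replicate 3, had a summed signal of 109296 over 8 measured blood cell markers, against 23.4 to 516 on the other 67 arrays, and 8223 over 6 measured A673 markers, against 17404 to 47322. On 2 arrays, ARA-C 0.17 uM day 3 replicate 3 and ARA-C 0.34 uM 24 h replicate 2, low signals were raised. To a lesser degree this also held for the puromycin 0.18 uM day 5 array, with 5.80% of its values under 10. For ACTB, the signal of the 3′ probe set over that of the 5′ one, a sign of RNA quality, had a log2 ratio of 2.88 to 5.07 for ARA-C 0.17 uM on day 5, 4.10 to 5.00 for doxorubicin 119.76 nM on day 5 and 4.13 for puromycin 0.18 uM on day 5, against 0.29 to 2.08 in vehicle. Doxorubicin 59.88 nM (2.13 to 2.93) and puromycin 0.09 uM (2.10 to 2.45) on day 5 also lay above every vehicle array. On day 3 ARA-C 0.17 uM (1.18 to 1.51), ARA-C 0.34 uM (1.53 to 1.84) and puromycin 0.09 uM (0.93 to 1.46) lay above vehicle of that day (0.29 to 0.81). At 24 h ARA-C 0.17 uM (1.39 to 1.99), doxorubicin 119.76 nM (1.26 to 2.13) and puromycin 0.09 uM (1.39 to 2.06) lay above vehicle of that time (0.51 to 1.10). The other groups of these times overlapped vehicle. The part of this ratio in the differences at any time was not tested. The array plate also matters, since all ARA-C 0.34 uM arrays and the puromycin 0.18 uM day 5 array lay in rows G-H, the other treated arrays in rows A-F, and vehicle in both. In RNA from whole cultures, fewer cells of a type and less RNA per cell cannot be told apart.

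On day 3 NFIL3 was higher under all 3 compounds, though at the EC50 of ARA-C and puromycin not past the test against vehicle of the same plate rows, and BHLHE40 was higher under ARA-C and doxorubicin but lower under puromycin. Of 8 genes tested (all but HLF), 2 rose on day 3 with ARA-C 0.17 uM (NFIL3 and BHLHE40), where 22.7% of all probe sets were called, and 3 with ARA-C 0.34 uM (these and CRY1), where 18.1% were. Doxorubicin on day 3 raised NFIL3, CRY1 and BHLHE40 and lowered PER2 at both doses, 4 of 8, where 20.3% of all probe sets were called at 59.88 nM and 22.8% at 119.76 nM. Against vehicle of the same plate rows, CRY1 at either dose and PER2 at 119.76 nM were not called. Puromycin 0.09 uM on day 3 raised NFIL3 and lowered BHLHE40, 2 of 9 with HLF tested, where 3.21% of all probe sets were called. Puromycin 0.18 uM raised NFIL3 and lowered HLF, DBP and BHLHE40, 4 of 9, where 11.6% were called. Calls are limma tests at an adjusted p under 0.05, with Benjamini-Hochberg adjustment over all 22215 probe sets.

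At 24 h little was called. ARA-C 0.34 uM raised NFIL3 and BHLHE40 (9.17% of all probe sets called), doxorubicin 119.76 nM raised NFIL3 (14.5%), and puromycin 0.09 uM lowered PER1 and BHLHE40 (10.5%). Limma called none of 8 genes with ARA-C 0.17 uM (14.4% of all probe sets called), none of 8 with doxorubicin 59.88 nM (5.38%) and none of 9 with puromycin 0.18 uM (7.74%), with 0, 2 and 3 genes at an unadjusted p under 0.05. By day 5 the calls were mostly of lower signal. ARA-C 0.17 uM lowered 7 of 8, all but TEF, where 47.6% of all probe sets were called and 8439 of those 10565 calls were also falls. Under quantile normalization PER1, PER2, CRY1 and BHLHE40 turned sign there (0.30 to 0.38) and NFIL3 was not called. Doxorubicin 59.88 nM lowered DBP, PER1 and PER2 (40.6%), doxorubicin 119.76 nM lowered DBP, NFIL3, CRY1 and NR1D2 (53.1%), and puromycin 0.09 uM lowered DBP, PER1 and BHLHE40 (17.6%). ARA-C 0.34 uM lowered DBP and raised CRY1 and BHLHE40 on day 5 (25.1%). The median of all probe sets was itself shifted in some comparisons, by 0.27 for ARA-C 0.17 uM on day 3, -0.28 for it on day 5, 0.20 for ARA-C 0.34 uM at 24 h, -0.15 and -0.25 for doxorubicin 59.88 nM and 119.76 nM on day 5, and -0.14 for puromycin 0.09 uM on day 5.

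**Figure D1:**
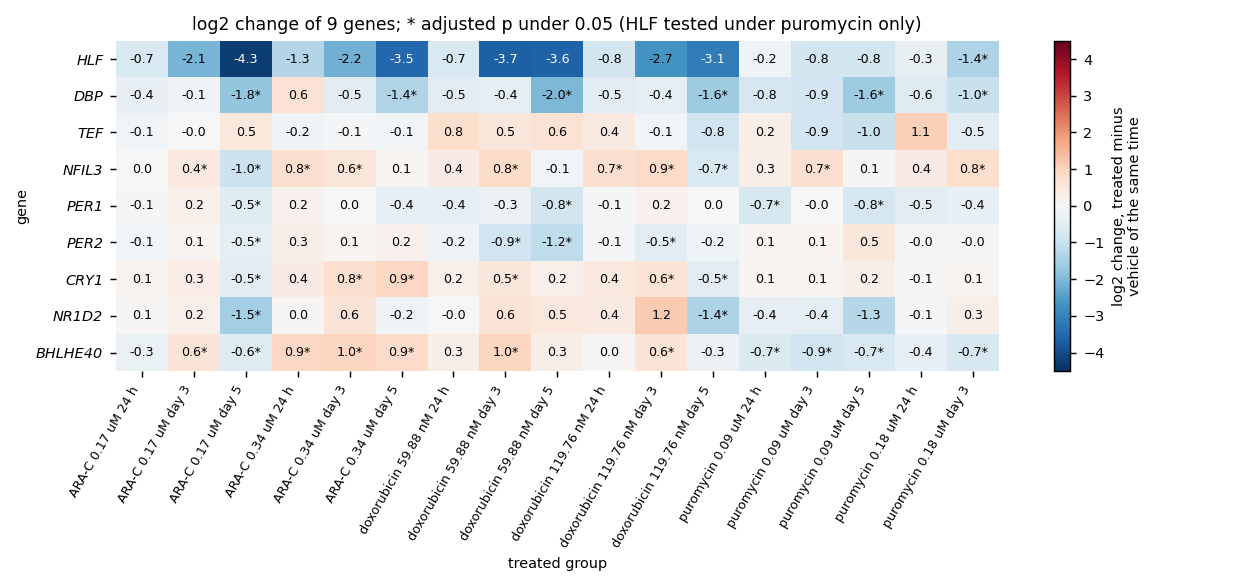
Difference from the vehicle arrays of the same time (log2 units, colour and printed value) for each of the 9 genes (rows) in each treated group (columns), where a star marks a called difference. On day 3 NFIL3 is higher in every column, BHLHE40 is higher under ARA-C and doxorubicin and lower under puromycin, and HLF, shown without a test under ARA-C and doxorubicin, has differences of -2.09 to -3.68 there.

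HLF, the PAR bZIP activator that gives the group its name, was lower than in vehicle under ARA-C and doxorubicin on both later days. On day 3 its signals were 38.8, 41.4 and 38.2 with ARA-C 0.17 uM and 33.1, 40.4 and 38.3 with ARA-C 0.34 uM, against 138, 155, 138, 229 and 199 in vehicle. They were 10.0, 2.73 and 22.5 with doxorubicin 59.88 nM and 44.6, 40.0 and 7.60 with doxorubicin 119.76 nM. All 12 of these arrays were below the lowest vehicle array. ARA-C 0.17 uM day 3 replicate 3 is an array of raised low signals. Its 10th percentile over all probe sets was 34.5, near the HLF signals of its group. The log2 differences were -2.09 and -2.18 for the ARA-C doses and -3.68 and -2.69 for the doxorubicin doses, and they chose the gene, so no test stands beside them.

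On day 5 HLF was at 7.79, 4.40 and 5.06 with ARA-C 0.17 uM and at 12.5, 3.63 and 36.6 with ARA-C 0.34 uM, against a lowest, median and highest vehicle signal of 137, 198 and 262. It was at 17.2, 21.6 and 1.87 with doxorubicin 59.88 nM and at 43.8 and 10.9 with doxorubicin 119.76 nM. No treated array reached vehicle, and all ARA-C 0.17 uM arrays were under 10, so the log2 difference of -4.26 there is only a limit set by that floor. For ARA-C the dose with the lower mean HLF was 0.34 uM on day 3 and 0.17 uM on day 5, and for doxorubicin it was 59.88 nM on both days. HLF signals of the doses overlapped for both compounds on both days. At 24 h its signals were 57.4 to 116 for ARA-C 0.17 uM, 34.4 to 80.9 for ARA-C 0.34 uM, 66.0 to 112 for doxorubicin 59.88 nM and 63.7 to 94.4 for doxorubicin 119.76 nM, against 75.9 to 213 in vehicle. The overlap with vehicle came from plate rows G-H, where vehicle was at 75.9 to 118, against 159 to 213 in rows A-F. The ARA-C 0.17 uM arrays and those of both doxorubicin doses lay in rows A-F, below every vehicle array of those rows, and their differences were -0.70, -0.67 and -0.81 against all vehicle arrays and -1.18, -1.15 and -1.29 against vehicle of the same rows. The ARA-C 0.34 uM arrays, in rows G-H, overlapped vehicle of their own rows. Their mean log2 signal was 5.77, against 6.62 in vehicle of those rows and 7.10 in all vehicle arrays, so there the difference was smaller within rows.

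Puromycin arrays had no part in the choice of HLF, but they were compared with the same vehicle arrays that the choice rested on. A gene picked this way is more likely to have high vehicle signals, so the puromycin tests are not independent of the choice. The differences under puromycin were smaller. HLF signals on day 3 were 79.1, 96.3 and 114 at 0.09 uM and 63.1, 63.9 and 66.6 at 0.18 uM, against 138 to 229 in vehicle. All 6 puromycin arrays were below vehicle, and those at 0.18 uM were below those at 0.09 uM. HLF fell by 1.38 on the log2 scale at 0.18 uM (SE 0.42, limma adjusted p = 0.0202). At 0.09 uM the difference was -0.82 (95% interval -1.66 to 0.02, adjusted p = 0.406), and the doses themselves differed by -0.56 (-1.51 to 0.38, adjusted p = 1). The call at 0.18 uM was weak, since it was lost against vehicle arrays of the same plate rows (-1.18, adjusted p = 0.151) and when vehicle day 3 replicate 5 (-1.27) or puromycin 0.18 uM day 3 replicate 1, 2 or 3 (-1.37, -1.38 and -1.41) was left out. On day 5 HLF was at 89.7 and 128 with puromycin 0.09 uM, below every vehicle array (-0.84, interval -1.78 to 0.11, adjusted p = 0.249), and at 14.8 on the single array of 0.18 uM, where low signals were raised. At 24 h the differences were -0.21 and -0.32 for 0.09 uM and 0.18 uM, and the groups overlapped the range of all vehicle arrays, while those at 0.09 uM (104 to 138) were below the vehicle arrays of their own rows (-0.69, adjusted p = 0.376).

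By mean signal on day 3, HLF ran from 11.8 ± 9.99 with doxorubicin 59.88 nM through 30.7 ± 20.2 with doxorubicin 119.76 nM, 37.3 ± 3.76 with ARA-C 0.34 uM, 39.5 ± 1.72 with ARA-C 0.17 uM, 64.5 ± 1.86 with puromycin 0.18 uM and 96.5 ± 17.5 with puromycin 0.09 uM to 172 ± 40.6 in vehicle (SD, n = 3 and 5). Neighbours from doxorubicin 59.88 nM up to ARA-C 0.17 uM overlapped, and each step above that did not. HLF has 3 probe sets, and the median difference over them was smaller, -1.28 for ARA-C 0.17 uM and -2.59 for doxorubicin 59.88 nM on day 3 and -1.37 for ARA-C 0.17 uM on day 5, with the same direction.

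**Figure D2:**
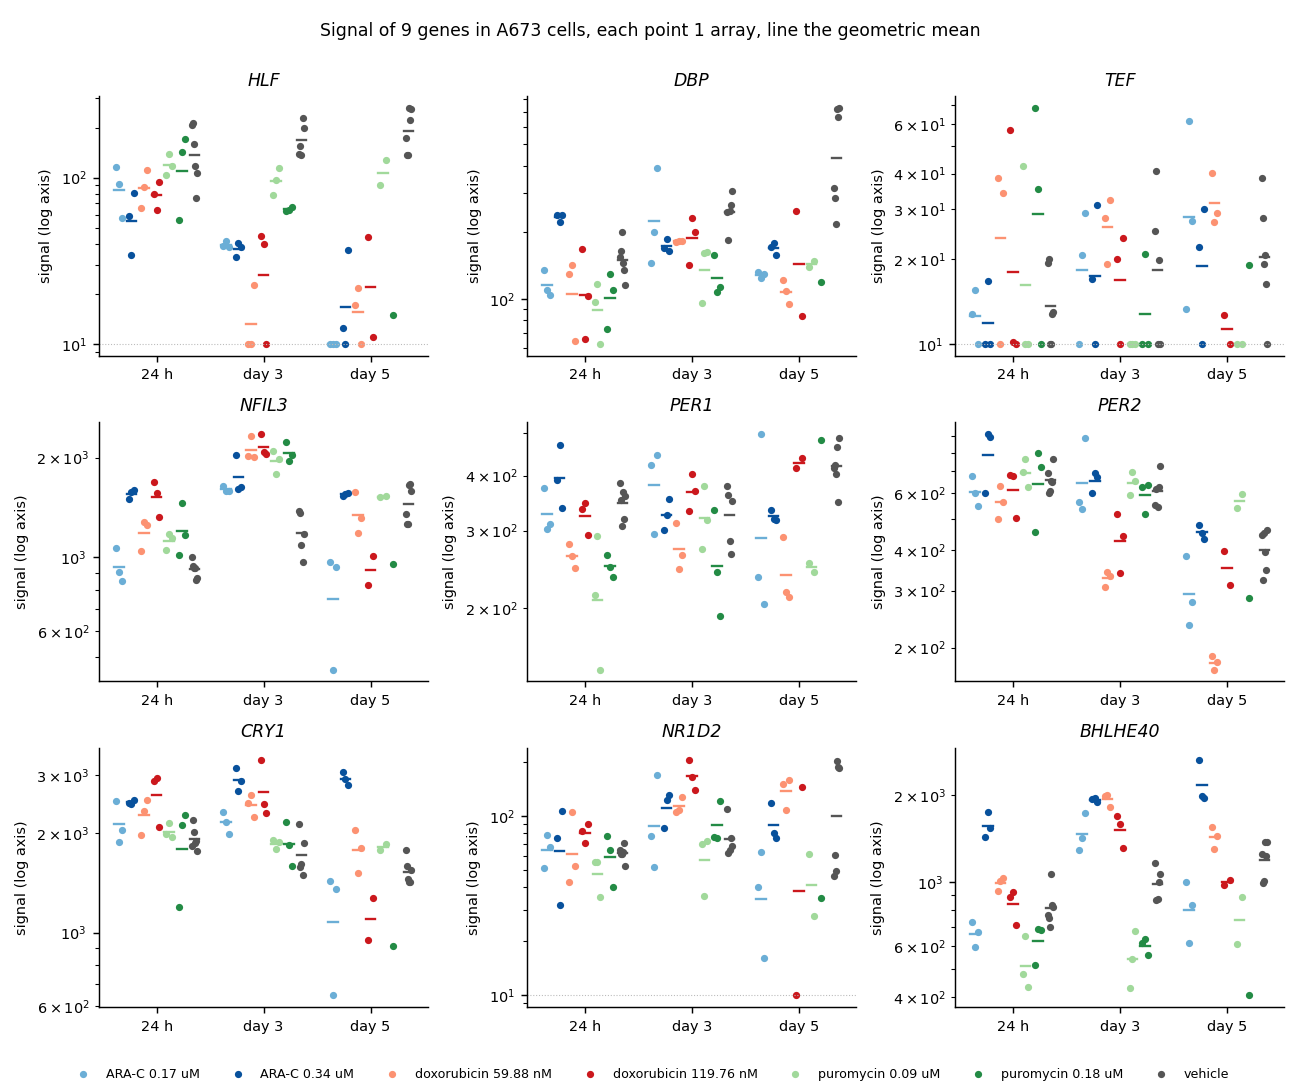
Signal (log axis, arbitrary units, floored at 10) of each of the 9 genes on every array by time (horizontal) and treatment (colour), with the geometric mean of a group as a line. On days 3 and 5 all HLF points of ARA-C and doxorubicin lie below the lowest vehicle point, and many TEF points lie on the floor, drawn as a dotted line.

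DBP, a PAR bZIP activator under direct clock control, was lower on day 5 in all 5 treated groups tested. Its signals were 132, 124 and 129 with ARA-C 0.17 uM, 171, 178 and 158 with ARA-C 0.34 uM, and 122, 108 and 94.5 with doxorubicin 59.88 nM, against 217, 489 and 727 for the lowest, median and highest vehicle array. They were 248 and 83.7 with doxorubicin 119.76 nM and 140 and 149 with puromycin 0.09 uM. Every treated array was below the lowest vehicle array except doxorubicin 119.76 nM replicate 1. DBP fell by 1.76, 1.36, 2.01, 1.59 and 1.59 on the log2 scale in that order (SE 0.32 to 0.37, limma adjusted p from 6.7e-07 to 0.00149), and without doxorubicin 119.76 nM day 5 replicate 3 that group's value was -0.81 (adjusted p = 0.15).

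Vehicle itself was split on day 5, with DBP at 316, 284 and 217 in plate rows A-F and 717, 663 and 727 in rows G-H. Against vehicle of the same rows, the difference was -1.06 for ARA-C 0.17 uM (adjusted p = 0.00443), -2.05 for ARA-C 0.34 uM (5.79e-07), -1.32 for doxorubicin 59.88 nM (0.000652), -0.90 for doxorubicin 119.76 nM (0.0295) and -0.90 for puromycin 0.09 uM (0.149). The first 4 thus stayed called within rows and the puromycin value did not. The ACTB ratio of these vehicle arrays was 1.92 to 2.08 in rows A-F and 0.53 to 0.66 in rows G-H, and its part in the split was not tested. The dimmer DBP probe set, with a mean signal of 26.7, did not follow the brighter one, since the median over both was 0.59 for doxorubicin 119.76 nM and -0.13 for ARA-C 0.17 uM on day 5.

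On day 3 DBP was at 157, 107 and 113 with puromycin 0.18 uM, against 248, 185, 249, 266 and 308 in vehicle, with no overlap. It fell by 1.00 in log2 signal (SE 0.33, adjusted p = 0.0359), a call lost against vehicle of the same rows (-0.79, adjusted p = 0.179) and without vehicle day 3 replicate 1 or 4 (adjusted p = 0.054 and 0.0559), without vehicle day 3 replicate 5 or 6 (-0.98 and -0.92), and without puromycin 0.18 uM day 3 replicate 2 or 3 (-0.90 and -0.93). No other DBP difference at 24 h or on day 3 passed the test.

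TEF, the remaining PAR bZIP activator, was close to the floor. Its brightest probe set had a mean signal of 18.9 and lay under 10 on 37.3% of arrays, and the other 2 did so on 56.7% and 59.7%. The highest TEF signal among treated arrays was 68.2 with puromycin 0.18 uM at 24 h, on an array whose replicates gave 35.3 and 3.79. Limma called no TEF difference from vehicle in 17 comparisons, 0 of them with an unadjusted p under 0.05, and with intervals such as -1.13 to 1.13 for ARA-C 0.17 uM on day 3 a change of the size seen for BHLHE40 could not be detected.

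**Figure D3:**
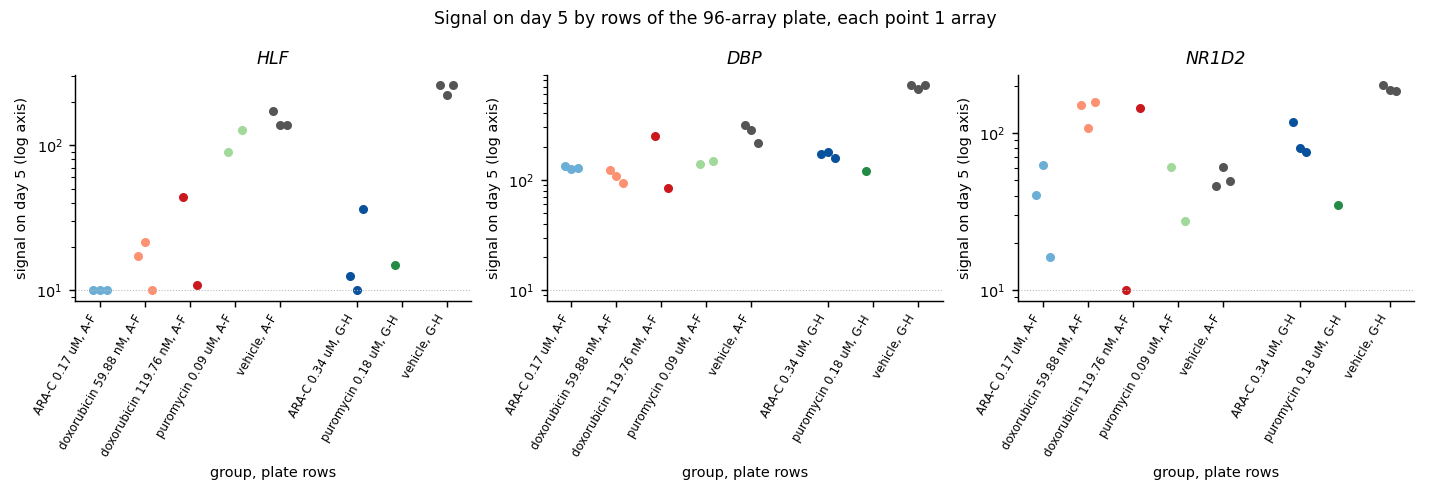
Day 5 signals (log axis, arbitrary units, floored at 10) of HLF, DBP and NR1D2, each point 1 array, by treated group and plate rows (A-F at the left, G-H at the right of each panel). Vehicle arrays of rows G-H lie above those of rows A-F for each gene, at 663 to 727 against 217 to 316 for DBP.

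NFIL3, the repressor at D-boxes, was higher on day 3 in all 6 treated groups. Its signals were 1642, 1588 and 1589 with ARA-C 0.17 uM, 2026, 2317 and 2015 with doxorubicin 59.88 nM and 2099, 1791 and 1976 with puromycin 0.09 uM, against 1384, 1358, 1093, 968 and 1180 in vehicle. At the higher doses they ran from 1604 to 2031 with ARA-C, from 2045 to 2359 with doxorubicin and from 1958 to 2230 with puromycin. No treated array overlapped vehicle. The rises were 0.44, 0.83 and 0.72 on the log2 scale at the EC50 of ARA-C, doxorubicin and puromycin and 0.56, 0.86 and 0.80 at 2xEC50 (SE 0.14 each, limma adjusted p from 4.7e-06 to 0.0228). That of ARA-C 0.17 uM was lost without its replicate 3 (0.45, adjusted p = 0.076), the array of raised low signals, without vehicle day 3 replicate 5 (0.36, adjusted p = 0.073), and with arrays shifted to a common median (0.11, adjusted p = 0.616), and that of ARA-C 0.34 uM without its replicate 1 (0.45, adjusted p = 0.054). Vehicle was at 1358 and 1384 in plate rows A-F and at 968 to 1180 in rows G-H, and against vehicle of the same rows NFIL3 was 0.23 higher with ARA-C 0.17 uM (adjusted p = 0.369) and 0.51 higher with puromycin 0.09 uM (0.081), neither called.

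At 24 h NFIL3 was above the highest vehicle array on every array of 5 treated groups, all but ARA-C 0.17 uM, and the difference was called in 2 of them. It was at 1501, 1571 and 1592 with ARA-C 0.34 uM (0.76 ± 0.14 SE, adjusted p = 0.000135) and at 1686, 1563 and 1324 with doxorubicin 119.76 nM (0.72 ± 0.14, adjusted p = 0.000146), against 854, 930 and 1002 as lowest, median and highest in vehicle. The others ran from 1045 to 1279 with doxorubicin 59.88 nM, from 1050 to 1174 with puromycin 0.09 uM and from 1019 to 1459 with puromycin 0.18 uM (0.37, 0.28 and 0.39, adjusted p = 0.117, 0.207 and 0.0768). On day 5 ARA-C 0.34 uM, doxorubicin 59.88 nM and puromycin 0.09 uM were within 0.11 of vehicle on the log2 scale and not called. It was lower on day 5 at 971, 459 and 939 with ARA-C 0.17 uM and at 828 and 1009 with doxorubicin 119.76 nM, against 1263 to 1662 in vehicle, and both treated groups had high ACTB ratios. Those falls of 0.96 and 0.67 depended on scaling, since quantile normalization gave -0.12 (adjusted p = 0.29) and 0.31.

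BHLHE40, the E-box repressor, separated the compounds. On day 3 its signals were 1286, 1415 and 1731 with ARA-C 0.17 uM and 1979, 1996 and 1813 with doxorubicin 59.88 nM, but 430, 541 and 676 with puromycin 0.09 uM, against 1162, 867, 872, 998 and 1066 in vehicle. The higher doses gave 1937, 1946 and 1893 with ARA-C 0.34 uM, 1685, 1582 and 1305 with doxorubicin 119.76 nM and 616, 633 and 560 with puromycin 0.18 uM. ARA-C and doxorubicin arrays were all above the highest vehicle array, and puromycin arrays all below the lowest. BHLHE40 rose by 0.57, 0.96, 0.97 and 0.62 on the log2 scale with ARA-C 0.17 uM, ARA-C 0.34 uM, doxorubicin 59.88 nM and doxorubicin 119.76 nM, and it fell by 0.87 and 0.71 with puromycin 0.09 uM and 0.18 uM (SE 0.15 each, limma adjusted p from 2.05e-06 to 0.00536). The rise with ARA-C 0.17 uM was lost without its replicate 3 (0.45, adjusted p = 0.089) and with arrays shifted to a common median (0.24, adjusted p = 0.216). All 6 were called against vehicle of the same plate rows. The median over both BHLHE40 probe sets, the other of which is dim (mean signal 82.4), was 0.31 for ARA-C 0.34 uM, with the probe sets in opposite directions. This median was not tested.

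At 24 h BHLHE40 was at 1429, 1737 and 1531 with ARA-C 0.34 uM and at 480, 649 and 435 with puromycin 0.09 uM, against 697, 793 and 1060 as lowest, median and highest in vehicle. Neither overlapped vehicle, and the differences were 0.94 (adjusted p = 9.8e-06) and -0.66 (0.00164, or -0.35 with adjusted p = 0.0973 after a shift to a common median). On day 5 it was at 2646, 1974 and 1942 with ARA-C 0.34 uM (0.86, adjusted p = 7.53e-06) and at 610 and 889 with puromycin 0.09 uM (-0.70, adjusted p = 0.00268), against 990 to 1374 in vehicle. The puromycin value was not called without puromycin 0.09 uM day 5 replicate 1 (-0.42, adjusted p = 0.29), against vehicle of the same rows (-0.55, adjusted p = 0.0737) or after the shift (-0.22, adjusted p = 0.388). With ARA-C 0.17 uM on day 5 BHLHE40 was at 998, 613 and 832, a fall of 0.58 that overlapped vehicle. Under quantile normalization this turned into a rise of 0.30. The call was lost without ARA-C 0.17 uM day 5 replicate 2 (-0.39, limma adjusted p = 0.052). With doxorubicin on day 5 the BHLHE40 difference was 0.26 at 59.88 nM and -0.26 at 119.76 nM, and neither was called.

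**Figure D4:**
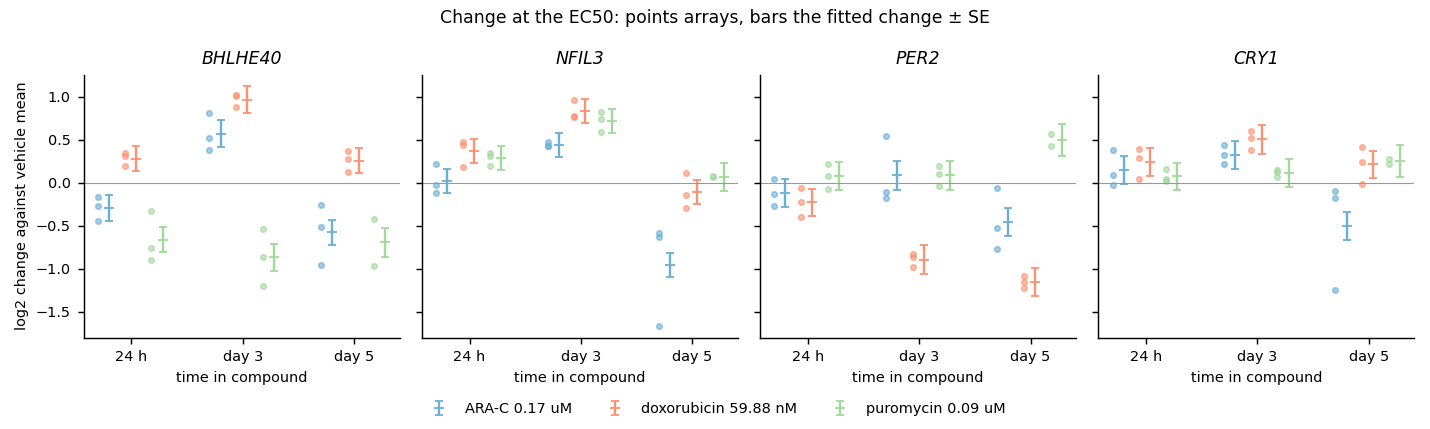
Difference from the vehicle mean of the same time (log2 units) of BHLHE40, NFIL3, PER2 and CRY1 at 24 h, day 3 and day 5 for the EC50 of each compound, with points for arrays and bars for the fitted difference ± SE. On day 3 BHLHE40 is at 0.57 with ARA-C and 0.97 with doxorubicin but at -0.87 with puromycin, and PER2 is lower with doxorubicin (-0.90).

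PER2, a clock repressor protein, was lower with doxorubicin. On day 3 its signals were 308, 342 and 333 with 59.88 nM and 516, 340 and 442 with 119.76 nM, against 551, 616, 543, 625 and 726 in vehicle. No doxorubicin array overlapped vehicle. PER2 fell by 0.90 at 59.88 nM and by 0.51 at 119.76 nM on the log2 scale (SE 0.17 each, adjusted p = 3.76e-05 and 0.0184), and the second call was lost without doxorubicin 119.76 nM day 3 replicate 2 (-0.35, adjusted p = 0.22) or vehicle day 3 replicate 6 (-0.45, adjusted p = 0.058). On day 5 PER2 was at 189, 171 and 180 with doxorubicin 59.88 nM, against 323, 420 and 462 as lowest, median and highest in vehicle, and it fell by 1.16 (SE 0.16, adjusted p = 4.06e-08). At 119.76 nM it was at 397 and 313 on day 5, overlapping vehicle (-0.18, adjusted p = 0.44). On day 3 ARA-C and puromycin differed from vehicle by -0.05 to 0.10, with no call. On day 5 PER2 was at 383, 235 and 277 with ARA-C 0.17 uM, a fall of 0.46 (limma adjusted p = 0.0159). Under quantile normalization it turned into a rise of 0.38. The call was lost without ARA-C 0.17 uM day 5 replicate 2 (-0.30) or 3 (-0.42).

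PER1, its paralogue, was lower on day 5 with doxorubicin 59.88 nM and with puromycin 0.09 uM, and at 24 h with puromycin 0.09 uM. On day 5 it was at 290, 218 and 212 with doxorubicin 59.88 nM and at 254 and 242 with puromycin 0.09 uM, against 349, 420 and 487 as lowest, median and highest in vehicle. Neither overlapped vehicle, and PER1 fell by 0.83 (SE 0.19, adjusted p = 0.000252) and by 0.77 (SE 0.22, adjusted p = 0.00903). Quantile normalization gave -0.30 and -0.38 for them with neither called, and the puromycin call was lost without puromycin 0.09 uM day 5 replicate 1 (-0.80) or 2 (-0.73) and within plate rows (-0.74, adjusted p = 0.0626). At 24 h PER1 was at 215, 291 and 145 with puromycin 0.09 uM, against 308 to 385 in vehicle, a fall of 0.74 (adjusted p = 0.00593) that was not called without puromycin 0.09 uM 24 h replicate 3 (-0.48, adjusted p = 0.2) or under quantile normalization (-0.42). The 24 h arrays of doxorubicin 59.88 nM (246 to 279) and puromycin 0.18 uM (235 to 265) were also below all vehicle arrays, with differences of -0.40 and -0.48 that did not pass (adjusted p = 0.238 and 0.11). The ARA-C 0.17 uM arrays of day 5 were at 235, 498 and 204, 1 of them above all vehicle arrays. Their fall of 0.55 turned into a rise of 0.31 under quantile normalization. The call was lost without replicate 1 (-0.40) or 3 (-0.30) of ARA-C 0.17 uM on day 5.

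CRY1, the clock repressor that binds the CLOCK and BMAL1 pair, was higher with ARA-C 0.34 uM and, on day 3, with doxorubicin. Its day 3 signals were 3153, 2677 and 2887 with ARA-C 0.34 uM, 2474, 2613 and 2246 with doxorubicin 59.88 nM and 3341, 2452 and 2308 with doxorubicin 119.76 nM, against 2139, 1578, 1609, 1490 and 1867 in vehicle. None overlapped vehicle. CRY1 rose by 0.75, 0.50 and 0.63 on the log2 scale (SE 0.17 each, adjusted p = 0.000633, 0.0236 and 0.00333). The doxorubicin 59.88 nM call was lost without vehicle day 3 replicate 2 (0.47) or 5 (0.45) or its own replicate 1 (0.49) or 2 (0.45) and within plate rows (0.41, adjusted p = 0.211), and that of 119.76 nM without its replicate 1 (0.47, adjusted p = 0.073) and within plate rows (0.54, adjusted p = 0.0772). On day 5 CRY1 was at 3060, 2917 and 2806 with ARA-C 0.34 uM, against 1423 to 1777 in vehicle, and rose by 0.93 (SE 0.16, adjusted p = 7.88e-06). It was at 1432, 646 and 1354 with ARA-C 0.17 uM and at 948 and 1274 with doxorubicin 119.76 nM on day 5, falls of 0.51 and 0.48. Under quantile normalization these turned into rises of 0.35 and 0.49. The calls were lost without ARA-C 0.17 uM day 5 replicate 2 (-0.14) and without doxorubicin 119.76 nM day 5 replicate 1 (-0.27).

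NR1D2, the repressor of BMAL1, was dim, and its vehicle arrays split on day 5 at 46.1, 60.4 and 49.6 in rows A-F and 202, 188 and 185 in rows G-H. On that day it was at 40.1, 62.8 and 16.2 with ARA-C 0.17 uM, at 152, 108 and 158 with doxorubicin 59.88 nM and at 9.99 and 144 with doxorubicin 119.76 nM. These groups overlapped the vehicle range of 46.1 to 202, and the single array of puromycin 0.18 uM was below it at 34.9. With ARA-C 0.34 uM, in rows G-H, NR1D2 was at 75.4 to 118, within the range of all vehicle arrays and not called against them. Those arrays were below every vehicle array of rows G-H (mean log2 signal 6.49 against 7.58). The falls called against all vehicle arrays, 1.53 with ARA-C 0.17 uM (adjusted p = 0.00737) and 1.39 with doxorubicin 119.76 nM (0.0343), were -0.59 (adjusted p = 0.402) and -0.44 (0.571) against vehicle of the same rows, while doxorubicin 59.88 nM was 1.41 higher within rows (0.0285) and 0.46 (0.51) against all. The ARA-C call was lost without its replicate 3 (-0.99), and the doxorubicin value was 0.54 without its replicate 1 and -1.18, -1.21 and -1.21, not called, without vehicle day 5 replicate 4, 5 or 6. On day 3 NR1D2 was at 207, 164 and 139 with doxorubicin 119.76 nM, against 62.1 to 109 in vehicle, above every vehicle array with a difference of 1.18 that did not pass (adjusted p = 0.09).

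The compounds were compared directly at the EC50, in 9 comparisons of 8 genes with p adjusted over all probe sets in each, and 17 of 72 differences were called. On day 3 BHLHE40 was 1.84 log2 units higher with doxorubicin than with puromycin (SE 0.17, adjusted p = 2.87e-12) and 1.44 higher with ARA-C than with puromycin (5.16e-09). ARA-C and doxorubicin differed by -0.40 in BHLHE40 (95% interval -0.74 to -0.05, adjusted p = 0.131). PER2 was 0.98 higher with ARA-C than with doxorubicin (SE 0.19, adjusted p = 0.000204) and 0.98 lower with doxorubicin than with puromycin (6.58e-05). These 4 calls were the ones made on day 3, where 9.56% of all probe sets were called between ARA-C and doxorubicin, 19.2% between ARA-C and puromycin and 16.3% between doxorubicin and puromycin. None of the 4 was lost on leaving out an array.

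At 24 h BHLHE40 alone was called, 0.58 lower with ARA-C than with doxorubicin (adjusted p = 0.0328, 5.66% of all probe sets called) and 0.94 higher with doxorubicin than with puromycin (0.00037, 3.3% called). Without ARA-C 0.17 uM 24 h replicate 2 or 3 or doxorubicin 59.88 nM 24 h replicate 2 or 3 the first was -0.50, -0.59, -0.57 and -0.55 and not called. Limma called none of the 8 genes between ARA-C and puromycin at 24 h (6.86% of all probe sets called), where 2 had an unadjusted p under 0.05. On day 5, 5 of 8 were called between ARA-C and doxorubicin (22.4%), 3 of 8 between ARA-C and puromycin (34.6%) and 3 of 8 between doxorubicin and puromycin (22.8%). With ARA-C, NFIL3, CRY1, NR1D2 and BHLHE40 were lower and PER2 higher than with doxorubicin, and NFIL3, PER2 and CRY1 were lower than with puromycin. ACTB ratios of that day were 2.88 to 5.07 with ARA-C and 2.13 to 2.93 with doxorubicin, and their part was not tested. PER2 was 0.70 higher with ARA-C than with doxorubicin (adjusted p = 0.00406, or 0.50 and not called without ARA-C 0.17 uM day 5 replicate 1) and 1.65 lower with doxorubicin than with puromycin (1.53e-08). In the latter, the puromycin 0.09 uM arrays (539 and 594) were above every vehicle array of day 5 (323 to 462), though not called against vehicle. BHLHE40 was 0.95 higher with doxorubicin than with puromycin on day 5 (adjusted p = 0.000122).

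Between doses, 13 of 66 differences were called. None of 8 genes was called by limma on day 3 between ARA-C 0.34 uM and 0.17 uM (0.86% of all probe sets called, 2 genes at an unadjusted p under 0.05) or between doxorubicin 119.76 nM and 59.88 nM (1.39%, 2 genes). For doxorubicin at 24 h (0.428%, 1 gene) and for puromycin at 24 h (0%, 0 genes) and on day 3 (0.356%, 0 genes) none was called either. ARA-C 0.34 uM minus 0.17 uM gave rises of NFIL3 (0.73) and BHLHE40 (1.24) at 24 h (14.3%) and of NFIL3, PER2, CRY1, NR1D2 and BHLHE40 on day 5 (37.3%). The ARA-C doses lay in different plate rows, so dose and rows cannot be told apart except through vehicle, and with rows as a block the values for NFIL3 and BHLHE40 were 0.76 and 1.04 at 24 h (adjusted p = 0.0131 and 0.00105) and for CRY1 and BHLHE40 1.57 and 1.24 on day 5 (2.44e-07 and 1.88e-06). With that block the NR1D2 difference of day 5 was 0.78 and not called (adjusted p = 0.404, against 1.38 and 0.0484 without it). After a shift to a common median, NFIL3 at 24 h (0.36, adjusted p = 0.144) and PER2 on day 5 (0.19, 0.491) were not called. Doxorubicin 119.76 nM minus 59.88 nM on day 5 gave higher PER1 (0.85) and PER2 (0.97) and lower NFIL3, CRY1, NR1D2 and BHLHE40 (28.9%), the last 4 with calls that were lost without doxorubicin 119.76 nM day 5 replicate 1 (-0.42, -0.48, 0.07 and -0.49). ACTB ratios were highest at the lower ARA-C dose and at the higher doxorubicin dose on that day, and their part in these differences was not tested.

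Between days in vehicle, 2 of 8 genes were called for day 5 against day 3 (21.3% of all probe sets called). PER2 was at 323 to 462 on day 5, against 543 to 726 on day 3, without overlap, and fell by 0.60 in log2 signal (SE 0.14, adjusted p = 0.000753). Within plate rows A-F the PER2 difference was -0.54 (adjusted p = 0.127) and within rows G-H -0.65 (0.0062). DBP was 0.81 higher on day 5 (SE 0.27, adjusted p = 0.0257), with the groups overlapping. For DBP it was 0.33 within rows A-F (adjusted p = 0.748) and 1.36 within rows G-H (0.000577), and the call was lost without vehicle day 3 replicate 2 (0.70) or vehicle day 5 replicate 4, 5 or 6 (0.67, 0.69 and 0.66). Limma called none of 8 between vehicle day 3 and 24 h (3.39%), where 3 had an unadjusted p under 0.05.

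BHLHE40 was the gene whose effects differed between 24 h and day 3. The day 3 effect was larger than the 24 h effect by 0.87 for ARA-C 0.17 uM (SE 0.21, adjusted p = 0.0103, 4.61% of all probe sets called) and by 0.69 for doxorubicin 59.88 nM (SE 0.21, adjusted p = 0.0298, 9.19%), both tested as an interaction in the same fit. Neither was called against vehicle of the same plate rows (0.70 and 0.52, adjusted p = 0.124 and 0.279). The first was lost without ARA-C 0.17 uM day 3 replicate 3 (0.75, adjusted p = 0.065) and after a shift to a common median (0.51, adjusted p = 0.125). The second was lost without vehicle 24 h replicate 4, vehicle day 3 replicate 2 or 4, doxorubicin 59.88 nM 24 h replicate 1 or doxorubicin 59.88 nM day 3 replicate 1 or 2 (0.61 to 0.67). None of 9 genes had such a call with puromycin 0.09 uM (0.0675%), where 2 had an unadjusted p under 0.05.

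NPAS2, BMAL1 and RORA were among the other core clock genes that rose with doxorubicin on day 3. Of 11 measured core clock genes outside the group, 4 rose and 1 fell on day 3 with each doxorubicin dose, where 20.3% and 22.8% of all probe sets were called, and 3 rose with each ARA-C dose, where 22.7% and 18.1% were. Limma called none with puromycin 0.09 uM (3.21% of all probe sets), and 2 rose and 1 fell with puromycin 0.18 uM (11.6%). The list's median difference was -0.10 and 0.31 for the doxorubicin doses, against 0.00 over all probe sets for both. NPAS2, which can stand in for CLOCK, had a median signal of 366 with doxorubicin 59.88 nM (lowest 311, highest 371), against 36.5 in vehicle (21.8 to 69.4). It rose by 3.11 with 59.88 nM (SE 0.44, adjusted p = 1.92e-07), 2.21 with 119.76 nM and 1.74 with ARA-C 0.34 uM.

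BMAL1, the activator that pairs with CLOCK, was at 413 to 457 with doxorubicin 59.88 nM, against 65.0 to 148 in vehicle, and rose by 2.04 log2 units (SE 0.30, adjusted p = 3.93e-07), with 1.37 at 119.76 nM. RORA, an activator of BMAL1, rose by 1.92 with ARA-C 0.17 uM, 1.70 with ARA-C 0.34 uM, 1.62 with doxorubicin 59.88 nM, 2.04 with doxorubicin 119.76 nM and 1.69 with puromycin 0.18 uM, on a probe set of a kind that can detect more than 1 gene. Its vehicle signals of day 3 were low and scattered (10.3 to 80.4), against 48.8 to 95.8 at 24 h and 74.7 to 151 on day 5. RORA with ARA-C 0.34 uM (65.2 to 151) and doxorubicin 59.88 nM (68.0 to 127) overlapped vehicle on day 3. Both doxorubicin doses and all 3 arrays of each thus had more NPAS2 and BMAL1 signal than any vehicle array.

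**Figure D5:**
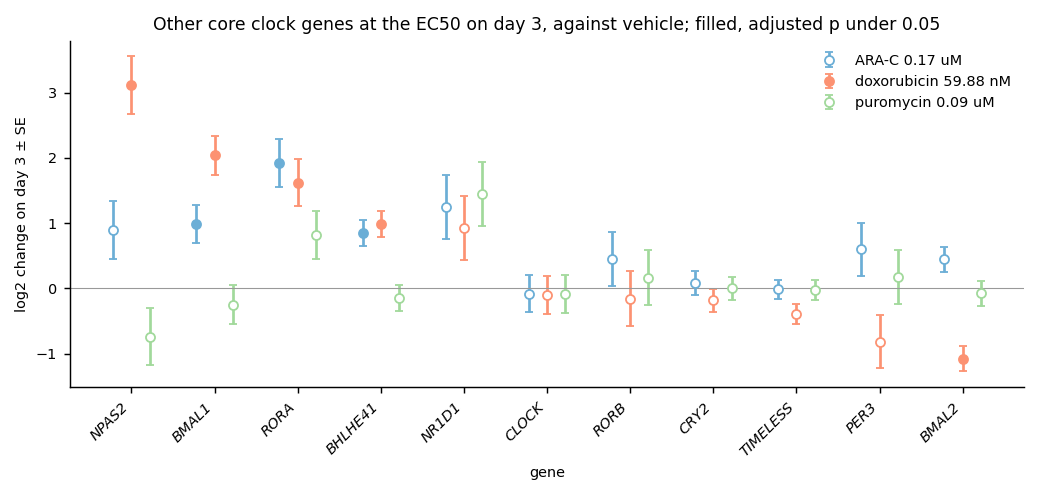
Day 3 difference from vehicle (log2 units, ± SE) at the EC50 of each compound for the 11 measured core clock genes outside the group, with filled points for called differences. NPAS2 (3.11) and BMAL1 (2.04) with doxorubicin have the largest called values, and no point of puromycin 0.09 uM is filled.

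Among 10 measured clock kinases and ubiquitin ligases, 1 rose and 2 fell with doxorubicin 59.88 nM on day 3 (20.3% of all probe sets called) and 2 rose and 1 fell with ARA-C 0.17 uM (22.7%). GSK3B, a kinase that phosphorylates clock proteins, fell by 0.59 with doxorubicin 59.88 nM (SE 0.14, adjusted p = 0.00093), a call that was lost under quantile normalization (-0.45, adjusted p = 0.0967). FBXW11 fell by 0.38 with ARA-C 0.17 uM, a call lost against vehicle of the same plate rows (-0.34, adjusted p = 0.139), with rows as a block, and without replicate 3 of that group or vehicle day 3 replicate 1, 5 or 6 (-0.34 to -0.37). PRKAA2 rose by 1.51 with ARA-C 0.17 uM, a call that was lost without replicate 3 of that group on day 3 (0.69, adjusted p = 0.553). Of 9 measured genes known as PAR bZIP targets in mouse, 2 rose and 1 fell with each of ARA-C 0.17 uM (22.7% of all probe sets called) and doxorubicin 59.88 nM (20.3%), and limma called none with puromycin 0.09 uM (3.21%). GSTA4, a glutathione transferase, was at 1217 to 1370 with doxorubicin 59.88 nM and at 1516 to 1606 with ARA-C 0.17 uM, against 2645 to 2762 in vehicle. It fell by 1.06 (SE 0.15, adjusted p = 2.49e-07) and by 0.78, while AADAC rose by 1.74 with doxorubicin 59.88 nM and NR1I3 by 1.40 with ARA-C 0.17 uM, from mean signals of 32.1 and 13.0 over all arrays, the second lost without ARA-C 0.17 uM day 3 replicate 3 (0.52, adjusted p = 0.607). The AADAC call was lost under quantile normalization (1.44, adjusted p = 0.078), against vehicle of the same rows (2.04, 0.0705) and without doxorubicin 59.88 nM day 3 replicate 1, 2 or 3 or vehicle day 3 replicate 2 or 4 (adjusted p from 0.0535 to 0.125).

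The C/EBP family, bZIP proteins that share binding sites with the PAR group, had 3 of 7 genes up on day 3 at the EC50 of ARA-C, doxorubicin and puromycin, where 22.7%, 20.3% and 3.21% of all probe sets were called. DDIT3, the stress-induced member, was at 2429 to 2826 with doxorubicin 59.88 nM, against 756 to 1108 in vehicle, and rose by 1.60 log2 units (SE 0.17, adjusted p = 1.45e-10), by 0.75 with ARA-C 0.17 uM and by 0.89 with puromycin 0.09 uM. CEBPD rose by 1.69 with doxorubicin 59.88 nM and CEBPG by 0.54 with puromycin 0.09 uM, the second a call lost against vehicle of the same plate rows (0.41, adjusted p = 0.234) and without puromycin 0.09 uM day 3 replicate 1, 2 or 3 or vehicle day 3 replicate 4 (0.50 to 0.56). Over the 4 lists, 37 genes and 17 comparisons with vehicle, 167 of 629 differences were called. In those comparisons 3.21% to 53.1% of all probe sets were called, so the count is not read as a trait of these genes.

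The pattern of HLF over treatments was unlike that of most of the other 8 genes. Over 20 group means of log2 signal, its Pearson r was 0.68 with PER2, -0.56 with BHLHE40 and -0.37 to 0.10 with the other 6. Of 8105 genes ranked by that measure, the most similar were CPSF4 (r = 0.974), FPGT (0.967), PIK3CB (0.938), SRI (0.938) and CDKN1B (0.934). On day 3 these 5 differed from vehicle by -0.42, -1.37, -0.91, -0.68 and -1.01 with ARA-C 0.17 uM, by -1.08, -2.33, -1.25, -0.93 and -1.47 with doxorubicin 59.88 nM and by -0.12, -0.39, -0.14, -0.29 and 0.01 with puromycin 0.09 uM. The ranking used the ARA-C and doxorubicin groups that chose HLF, so changes of these 5 genes that resemble those of HLF follow from the ranking itself. The groups share arrays of the same plate and the same vehicle, and the values are a description with no test.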

How the data were processed

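RNA of A673 cells was measured on 68 Affymetrix arrays in plate format, 18 of ARA-C, 17 of doxorubicin, 16 of puromycin and 17 of vehicle. The deposited values are an intensity per probe set from MAS5, on a linear scale. Array means were nearly equal, as after scaling, and neither the scaling target, the MAS5 version nor a detection call is given in the sources used here. Plate rows were taken from the study's list of array positions. Of 22930 probe sets, 715 controls were left out, and genes are named only through the 19230 probe sets with 1 symbol in the platform annotation (125 had several, 2860 none). Signals under 10 were set to 10 and those over 16000 to 16000 before taking log2. The 21 group means over 67 arrays were fitted in limma 3.58.1 under R 4.3.3 with an intensity trend (residual df 46, prior df 5.04), and every comparison came from this fit, each treated group against vehicle of its own time. Benjamini-Hochberg adjustment ran over 22215 probe sets, and calls needed an adjusted p under 0.05. The fit was tested on simulated data with known changes. HLF was tested only in comparisons of puromycin. Puromycin 0.18 uM on day 5 has 1 array, so its values have no test, and the number of arrays limits the precision throughout.

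The members and the gene lists were chosen with earlier results of these data known. Named genes are the 9 members, the 3 largest called day 3 changes at an EC50 in each list, and the 5 genes most like HLF. Other core clock genes appear only in a figure. Some genes of the lists were not analysed here, and counts are over the measured ones. The alternatives, each changing 1 choice, were a shift of arrays to a common median, quantile normalization, a floor of 32 or 1, a mean signal of 100 or more, no trend, only the arrays compared, the left-out array kept, plate rows as a block, vehicle of the same plate rows, replicate number as a block, the median over a gene's probe sets, and leaving out each array in turn. Leaving out the 2 ARA-C arrays with raised low signals, giving the values by plate rows side by side, and leaving out the 3 groups of high ACTB ratio were chosen after seeing the data.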

Additional observations from a re-analysis of the deposited data

Results flagged for a closer look

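BHLHE40 differed in its effect between times at the EC50 of 2 compounds. The day 3 effect exceeded the 24 h effect by 0.87 log2 units for ARA-C 0.17 uM and by 0.69 for doxorubicin 59.88 nM, both past the interaction test of the fit (limma adjusted p = 0.0103 and 0.0298). Neither was called against vehicle of the same plate rows (0.70 and 0.52, adjusted p = 0.124 and 0.279), the ARA-C value was 0.51 after a shift to a common median (adjusted p = 0.125) and 0.75 without ARA-C 0.17 uM day 3 replicate 3 (0.065), and the doxorubicin call was lost when any 1 of 6 arrays was left out (0.61 to 0.67). At 24 h the effects were -0.30 and 0.28, not called, and on day 3 they were 0.57 and 0.97, with 3 of 3 arrays of each compound above the highest vehicle array. PER2 had a signal of 471 on the array that was left out, puromycin 0.09 uM day 5 replicate 3, just above the highest vehicle array of day 5 at 462. The other 2 arrays of its group gave 539 and 594. The 9 genes in the 3 vehicle groups made 27 checks for a single array far from the rest of its group, and 0 met that mark, where chance gives about 1 in 20.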

How the results depend on the processing

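Of 78 called differences of the 9 genes, 56 kept their call under quantile normalization, 60 after a shift to a common median, 73 with plate rows as a block, 32 of 46 against vehicle of the same plate rows, 71 with the median over probe sets, 47 with only the arrays compared and 47 with the left-out array kept. The median over probe sets was not itself tested. There a call counted as kept where all probe sets of the gene changed in the same direction, which holds in advance for genes with a single probe set. With floors of 32 or 1 it was 75 and 76, without the trend 77, and without the 2 ARA-C arrays of raised low signals 75. All 48 that could be refitted without the 3 groups of high ACTB ratio kept their call, as did 71 of 71 with a mean signal of 100 or more. Neither of these settings can change the difference itself, only the shared spread or the adjustment. They therefore do not test the part of RNA quality or of dim signals in the calls. Leaving out 1 array kept 517 of 594.

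Quantile normalization turned the sign against vehicle for PER1 (0.31), PER2 (0.38), CRY1 (0.35) and BHLHE40 (0.30) with ARA-C 0.17 uM on day 5, NFIL3 (0.31) and CRY1 (0.49) with doxorubicin 119.76 nM on day 5, and between doses for PER2 with ARA-C (-0.072) and BHLHE40 with doxorubicin (0.0088) on day 5. The median over probe sets turned DBP with doxorubicin 119.76 nM on day 5 (0.59) and DBP between vehicle days (-0.10). Without doxorubicin 119.76 nM day 5 replicate 1, NR1D2 turned against vehicle (0.54, range on leaving out 1 array -3.31 to 0.54) and between doses (0.073, range -3.78 to 0.073), and with puromycin 0.09 uM day 5 replicate 3 kept, NFIL3 turned between ARA-C and puromycin on day 5 (1.19). The cause was not tested.

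Counts of calls moved as follows. For ARA-C 0.17 uM (9 of 24) a common median gave 3, only the arrays compared 5, the left-out array kept 5, and the high ACTB groups left out 2, since its day 5 comparison is then gone. For doxorubicin 119.76 nM (9 of 24) the left-out array kept gave 5. For puromycin 0.09 uM (7 of 27) vehicle of the same rows gave 4. For puromycin 0.18 uM (4 of 18) the left-out array kept gave 1 and vehicle of the same rows 2. Between compounds (17 of 72) only the arrays compared gave 10 and the high ACTB groups left out 11. Between doses (13 of 66) only the arrays compared gave 7, the left-out array kept 8 and the high ACTB groups left out 3. Between vehicle days (2 of 16) quantile normalization gave 4, a mean signal of 100 or more 4, the left-out array kept 1, rows A-F alone 0, rows G-H alone 6, the median over probe sets 1 and the high ACTB groups left out 5. For effects that differ between day 3 and 24 h (2 of 25) a common median gave 1, the left-out array kept 0, vehicle of the same rows 0 and the high ACTB groups left out 4. For the other lists (167 of 629) the left-out array kept gave 108.

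Leaving out 1 array gave 6 to 9 for ARA-C 0.17 uM, 7 to 8 for ARA-C 0.34 uM, 6 to 7 for doxorubicin 59.88 nM, 8 to 10 for doxorubicin 119.76 nM, 5 to 8 for puromycin 0.09 uM, 2 to 5 for puromycin 0.18 uM, 16 to 19 between compounds, 8 to 14 between doses, 1 to 3 between vehicle days, 1 to 3 for effects that differ between times and 158 to 184 for the other lists. With the replicate block, the counts were 8, 8, 6, 8, 7, 2, 17, 12, 2, 2 and 148 in that order, and 70 of 78 differences kept their call. Replicate numbers were not treated as pairs in the main fit. In 0 of 17 groups did every pair of equally numbered treated and vehicle arrays correlate above 0.1 (r from -0.098 to 0.11). The vehicle means span both sets of plate rows, so this check cannot exclude a pairing.

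Signals near the floor limit HLF on day 5 under ARA-C and doxorubicin, TEF throughout and the dimmer DBP probe set, where a difference is only a bound or cannot be seen. The ACTB ratio and the plate rows move with some groups, and their part in the results was not tested beyond the values given.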
